A study of Mus musculus with 2 samples.

Results

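The C-type lectin genes are the 39 rows of the expression matrix whose symbols start with Clec and a digit or with Cd209, or read Colec12, out of 32285 genes in all. Most encode surface proteins with a carbohydrate-recognition-type fold. In macrophages, some of these receptors carry their own inhibitory motif and recruit phosphatases, and others pair with the adaptors Fcer1g or Tyrobp and signal through the kinase Syk to Card9, Bcl10 and Malt1. They are known for binding sugars of microbes, mannose and galactose on the body's own glycoproteins, and debris of dying cells. Mice of both groups carried PyMT, the polyoma middle T oncogene that drives mammary tumours, and were backcrossed to B6. The 2 samples, 1 per genotype, were control-PyMT and MYC-PyMT, the latter with the allele Rosa26-LSL-MYC switched on by S100a8-cre, whose promoter is that of a neutrophil gene. In both groups the tumour-bearing recipients received lethal irradiation when 7 weeks old, and then marrow of Fcgr1-cre Rosa26-LSL-H2B-mCherry/+ donors, whose cells with a history of Fcgr1 expression have red nuclei. A low protein diet began 2 weeks after the transplant and went on for 6 weeks. Tumour-associated macrophages (F4/80 and Vcam positive) were sorted, their mCherry-positive, CD11b-negative nuclei were sorted again, and RNA was counted as unique molecular identifiers (UMIs).

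The matrix holds barcodes of 2 wells that no label ties to a genotype, so it is 1 pooled sample, no comparison of genotypes was made, and no difference here has a replicate check. After filtering, 1808 nuclei remained. Of these, 1126 were macrophage nuclei (3 or more UMIs summed over Ptprc, Csf1r, Adgre1 and Mertk), with a median of 3143 UMIs and 4818709 UMIs in all, 803 of them from well 1 and 323 from well 2. All 11 macrophage markers were detected in them, at 3760 UMIs per 1000000 counted (CPM) in sum. Markers of epithelial cells came to 841 CPM without Trps1, which the epithelial gate leaves out, and to 3212 CPM with it. Sums of epithelial markers below leave Trps1 out. Of the macrophage nuclei, 51 held no UMI of Csf1r, Adgre1 or Mertk. Intervals below are exact 95% intervals (Poisson for levels, conditional binomial for ratios, Clopper-Pearson for shares of nuclei) and cover counting error only. With bulk sums over nuclei, more nuclei with a transcript and more transcript per nucleus are told apart only where shares of nuclei are given. The wells shared 9 barcode sequences.

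The family had 2563 UMIs in macrophage nuclei, a level of 532 CPM (interval 511 to 553), and 761 nuclei held at least 1 UMI of a member. Of the 39 members, 28 had a UMI there, 18 had 10 or more and 12 reached 10 CPM. The 18 held 98.9% of the family's UMIs. These values, and the levels in macrophage nuclei below, include 19 nuclei of 20000 UMIs or more. Without those the family stood at 643 CPM (618 to 669), and Clec1a also reached 10 CPM, at 10.2 CPM. The share of members with 10 or more UMIs was 46.2%, beside 41.0% of all genes, and the median level of such members was 23.0 CPM, beside 24.3 CPM for all such genes. The family was thus read at the levels of ordinary genes in these nuclei.

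The Dcir and Dectin-2 cluster, 9 neighbouring genes of chromosome 6, supplied 1258 of the UMIs (49.1% of the family, 261 CPM). The cluster spans 122921848 to 123289870 on GRCm38 (the assembly named mm10), 368 kb that hold all 9 genes. Its members divide into the inhibitory receptor Clec4a2 (Dcir) with its close relatives Clec4a1, Clec4a3 and Clec4a4, the activating Clec4b1 and Clec4b2, and the activating trio Clec4n (Dectin-2), Clec4d (Mcl) and Clec4e (Mincle), which bind fungal and mycobacterial glycans through Fcer1g. Clec4a2 had 72.8 CPM (65.4 to 80.9), with a UMI in 21.8% of macrophage nuclei, and Clec4a1 had 72.0 CPM (64.6 to 80.0), with a UMI in 13.6%. These levels do not differ beyond counting error, while Clec4a3 was below both at 46.7 CPM (40.8 to 53.2). Of the 91-base windows of Clec4a4 (the read length), 10.6% also occur in Clec4a2, and 2.44% of those of Clec4a2 in Clec4a4, so the 8 UMIs of Clec4a4 are uncertain. Clec4n followed at 33.4 CPM (28.4 to 39.0), then Clec4d at 14.9 CPM (11.7 to 18.8) and Clec4e at 12.2 CPM (9.32 to 15.8). The activating Clec4b1 had 7.06 CPM on 34 UMIs, and Clec4b2 had 1 UMI. The activating trio was lower than Clec4a1 and Clec4a2, and its last pair, Clec4d and Clec4e, did not differ beyond counting error.

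Outside this cluster, the members with the most UMIs were Clec2d and Clec16a. Clec2d, the ligand that quiets natural killer cells through Klrb1 receptors, had 65.4 CPM (58.3 to 73.0). Clec16a, an endosomal gene of mitophagy that is no surface receptor, had 63.1 CPM (56.2 to 70.6). Per kilobase of gene span the order changed. Clec2d, a gene of 5.92 kb, had the highest level at 11.0 CPM per kb, ahead of Clec4a1 at 5.64 CPM per kb. Clec16a, a gene of 200 kb, had 0.316 CPM per kb. What this order means depends on whether intronic reads were counted, which is not given. Clec12a, an inhibitory receptor for uric acid crystals, had 32.2 CPM (27.3 to 37.6), Clec5a, an activating partner of Tyrobp, 23.7 CPM (19.5 to 28.4), and Clec10a, the macrophage galactose-type lectin, 22.4 CPM (18.4 to 27.1). The 15 UMIs of Cd209a, a relative of DC-SIGN, lay in 6 nuclei and were all from well 2. Colec12, a scavenger receptor with a collagen stalk, stood apart: of its 148 UMIs, 59 (39.9%) lay in 1 nucleus of 4135 UMIs. Its level was 30.7 CPM with that nucleus and 18.5 CPM without it. The remaining measured members were Clec1a (8.09 CPM), Clec9a (7.89 CPM), Clec2g (5.81 CPM) and Clec2i (4.57 CPM).

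Another 10 members had between 1 and 9 UMIs: Clec4a4 (8), Clec18a (4), Clec1b (4), Cd209c (3), Clec3b, Clec2l and Clec2e (2 each), and Clec4b2, Clec2f and Cd209d (1 each). The last 11 had none: Clec4f, Clec2h, Clec12b, Clec11a, Clec4g, Cd209e, Cd209b, Cd209f, Cd209g, Clec3a and Clec14a. Counting 3 UMIs as the limit for 0, here and below, each allows up to 0.266% of the 1126 nuclei with a UMI and a level up to 0.623 CPM. The exact 95% upper limits are 0.327% and 0.766 CPM. Several of the 11 are textbook markers of other sites, such as Clec4f of liver Kupffer cells, Cd209b of marginal zone macrophages of the spleen, Clec4g of liver sinusoidal endothelium and Clec14a of endothelium. Of these, 5 had 1 or 2 UMIs elsewhere among the kept nuclei (Clec4f, Clec2h and Cd209b 1 each, Clec14a 1 and Clec11a 2), and 6 had none in any. Cd209f and Cd209g have 21.3% and 12.1% of their 91-base windows in common, so low counts of this pair would be uncertain in any case.

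To tell macrophage transcripts from free RNA, the macrophage nuclei were set beside 251 epithelial nuclei (3 or more UMIs of epithelial markers and at most 1 of the gate genes). Since that limit leaves out barcodes with more macrophage RNA, the class can understate free RNA and the ratios can be too high. A member was called higher or lower at a difference of 2-fold or more with at least 20 UMIs over both classes. Of 17 members with enough UMIs, 14 were higher in macrophage nuclei, where 15% of all genes tested were, and 0 were lower, where 21.5% of all genes were. The median ratio was 13.2 over these members and 0.819 over all genes tested. With 3 counts as the limit for 0, Clec4a1 (347 UMIs against 0) was at least 42.4-fold higher. By the same limit, Clec4n (161 against 0) was at least 19.7-fold and Clec10a (108 against 0) at least 13.2-fold higher. The epithelial class has 224 of its 251 nuclei from well 1. For Clec4a1 the bound was 4.09 within well 1, 15.0 within well 2 and 28.1 without nuclei of 20000 UMIs or more. In well 2, which held 105 of the 108 Clec10a UMIs, 0 epithelial UMIs allow 18.3 CPM. The bounds there were 4.93 for Clec10a and 3.66 for Clec4n. Clec4b1 and Clec2g, both called higher on the pooled nuclei, were at 27.5 and 22.4 CPM in macrophage nuclei of well 2. These levels lie less than 2-fold above that limit. With 2 UMIs each in well 1, neither gene was called in either well. Clec4a2 had 351 UMIs against 3, a ratio of 42.9 (14.5 to 209). The Dcir and Dectin-2 cluster as a whole stood at 4.53 CPM in epithelial nuclei, and 2.79% of them held any of its UMIs, against 42.4% of macrophage nuclei. Thinned to 1000 UMIs a nucleus, which leaves out 50 shallower macrophage nuclei, the shares were 1.99% and 21.3%. The 3 members not called were Clec2d at 65.4 against 32.9 CPM (ratio 1.99, 1.499 to 2.68), Colec12 at 30.7 against 27.2 CPM (1.13, 0.811 to 1.60) and Clec16a at 63.1 against 62.3 CPM (1.01, 0.811 to 1.27). Clec2d was thus higher in macrophage nuclei beyond counting error but just under 2-fold, while the intervals of Colec12 and Clec16a hold a ratio of 1. Within well 1 alone 10 members were higher and within well 2 alone, where the epithelial class has 27 nuclei, 9.

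**Figure D1:**
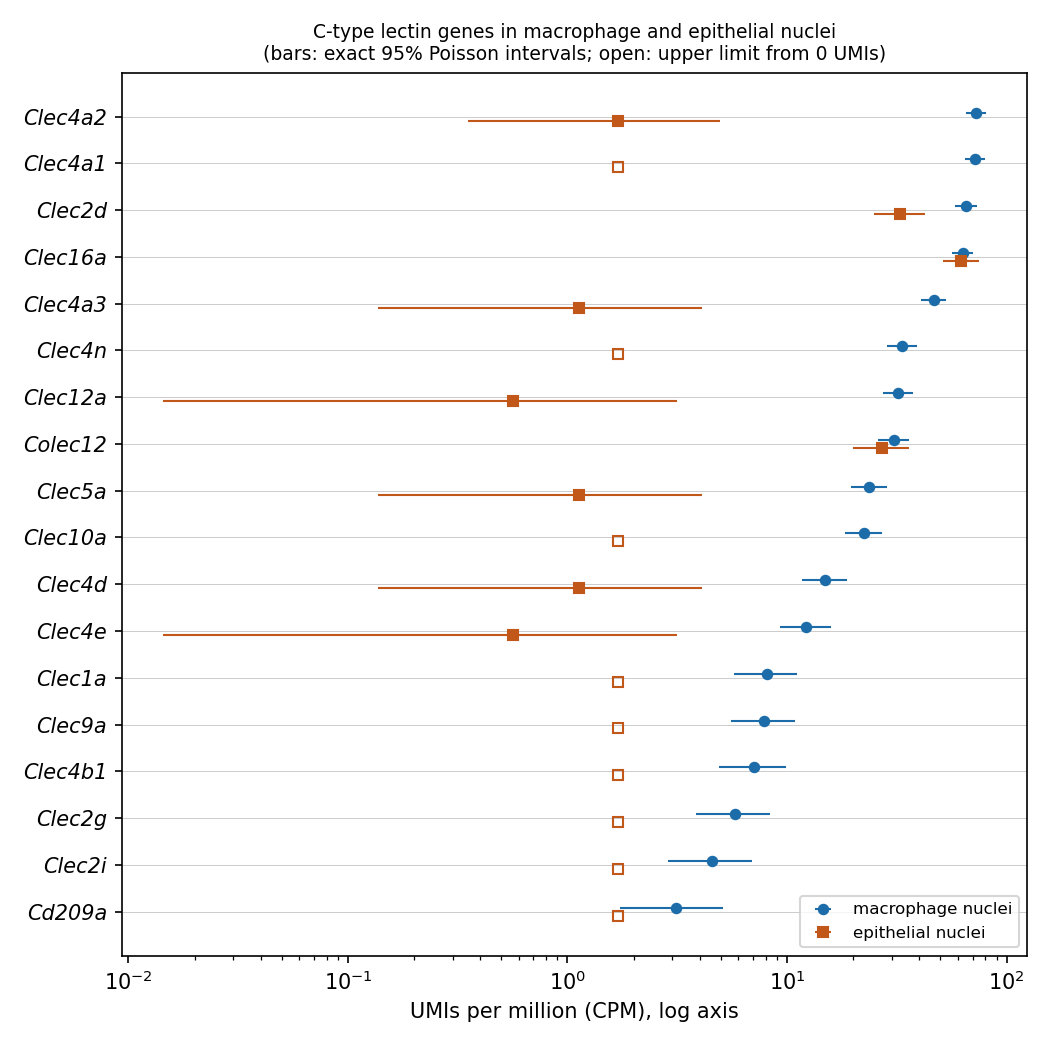
Levels of the 18 members with 10 or more UMIs in macrophage nuclei (x axis: CPM on a log axis) in 1126 macrophage (circles) and 251 epithelial nuclei (squares). Bars are exact 95% Poisson intervals and open symbols mark the upper limit that 0 UMIs allow (3 counts). Clec16a and Colec12 have overlapping intervals in the 2 classes, Clec2d is at 65.4 and 32.9 CPM, and Clec4a2 is at 72.8 and 1.70 CPM.

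The macrophage nuclei were then split into states by genes outside the family. Resident-like nuclei had 3 or more UMIs over F13a1, Mrc1, Lyve1, Cd163, Folr2 and Stab1. Inflammatory nuclei had 3 or more over Il1b and Nlrp3, whatever their immediate early UMIs. Immediate early nuclei had 4 or more over Atf3, Fosb, Nr4a1, Nr4a3, Hsph1, Hspa1a and Hspa1b, and fewer than 3 over Il1b and Nlrp3. Gpnmb-positive nuclei had at least 1 UMI of Gpnmb. The inflammatory and immediate early gates count as 1 stress gate. Nuclei past more than 1 of the resident-like, Gpnmb and stress gates are called mixed. Steady nuclei had few or none of these UMIs. The classes held 196 resident-like, 192 inflammatory, 193 immediate early, 15 Gpnmb-positive, 144 mixed and 292 steady nuclei, and 94 lay between. The wells were spread unevenly: well 2 gave 55.6% of resident-like, 69.4% of mixed, 7.29% of inflammatory and 14.0% of steady nuclei. Family levels were 1011 CPM (939 to 1087) in resident-like, 751 CPM in mixed, 450 CPM (405 to 498) in steady, 414 CPM (366 to 465) in inflammatory and 234 CPM (210 to 260) in immediate early nuclei.

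Resident-like nuclei had the highest levels of several sugar-binding and Dcir genes. Against steady nuclei, 5 of the 10 members tested were higher, where 4.58% of all genes tested were, and 0 were lower, where 5.76% were. Clec10a had 68 UMIs (94.9 CPM) in resident-like and 4 UMIs (4.81 CPM) in steady nuclei, a ratio of 19.7 (7.37 to 74.5). Clec4a1 had 219 CPM (186 to 256) against 31.3 CPM (20.4 to 45.8), a ratio of 7.01 (4.61 to 11.1). Those were followed by Clec4n at 3.02 (1.63 to 5.90), Clec4a2 at 2.56 (1.87 to 3.53) and Clec4a3 at 2.36 (1.55 to 3.64). The 5 members not called were Colec12 (1.97, 0.854 to 4.82), Clec12a (1.62, 1.01 to 2.61), Clec5a (1.16), Clec2d (1.10) and Clec16a (0.974). The median ratio was 2.17 over the 10 members and 0.976 over all genes tested. A UMI of the Dcir and Dectin-2 cluster was in 70.9% of resident-like nuclei (64.0 to 77.2) and 29.8% of steady nuclei (24.6 to 35.4), and UMIs of 2 or more of its members in 37.8% and 7.19%. Thinned to 1000 UMIs, the first pair of shares was 42.3% and 13.2%.

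The values of each well are given in turn. In well 1, resident-like nuclei (87) had 5 UMIs of Clec4a1 against 14 in steady nuclei (251), 15.0 against 19.2 CPM, a ratio of 0.780 (0.220 to 2.29). Clec10a had 0 UMIs in the resident-like nuclei of well 1 and 1 in its steady nuclei. There, Clec4a2 (1.43, 0.869 to 2.31) and Clec4a3 (1.26, 0.621 to 2.47) were under 2-fold, and only Clec4n was called, at 47.9 against 17.8 CPM (2.69, 1.21 to 6.08). In well 2, Clec4a1 had 397 CPM in resident-like (109) and 117 CPM in steady nuclei (41), a ratio of 3.39 (1.89 to 6.71). Clec10a had 68 against 3 UMIs there (6.07, 1.99 to 30.2), and Clec4n 23 against 2 (3.08, 0.761 to 27.0). Also in well 2, Clec4a2 was at 267 against 137 CPM and Clec4a3 at 146 against 87.9 CPM, both under 2-fold. Clec4a2 and Clec4a3 were thus past 2-fold in the pooled nuclei but in neither well. Clec4n alone among the 5 was past 2-fold in each well, on 2 UMIs in the steady nuclei of well 2. The gate genes differed between wells as well: resident-like nuclei of well 1 had F13a1 at 95.9 CPM, Mrc1 at 635 CPM, Stab1 at 737 CPM and no UMI of Lyve1 or Folr2. Those of well 2 had F13a1 at 2364 CPM, Mrc1 at 2774 CPM, Stab1 at 612 CPM and Lyve1 at 191 CPM. Ccr2, a receptor of monocyte-derived cells, was at 41.9 CPM in the former and 431 CPM in the latter. The share of the wells in the resident-like difference was not tested, and well and genotype cannot be told apart.

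**Figure D2:**
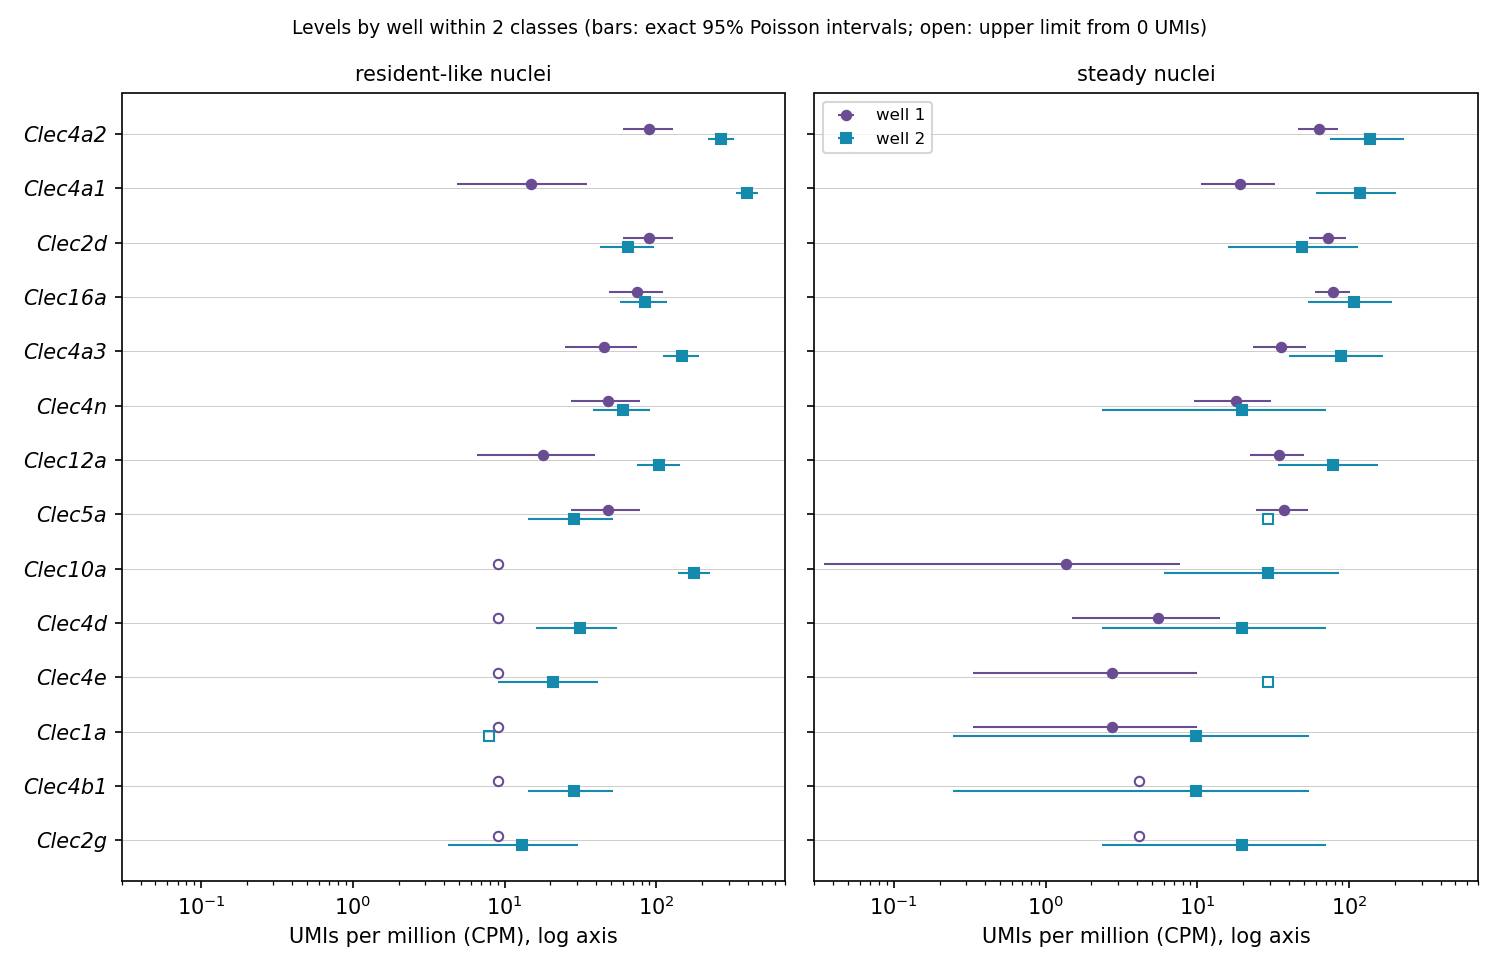
Levels (x axis: CPM on a log axis) in resident-like (left) and steady nuclei (right) of well 1 (circles) and well 2 (squares). Shown are the 18 members with 10 or more UMIs in macrophage nuclei, except Cd209a, Clec2i, Clec9a and Colec12. Bars are exact 95% Poisson intervals and open symbols mark the upper limit that 0 UMIs allow (3 counts). Clec4a1 is at 15.0 CPM in resident-like nuclei of well 1 and 397 CPM in those of well 2, while Clec2d and Clec16a have overlapping intervals in all 4 sets.

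Over all macrophage nuclei, 12 of the 17 members tested were 2-fold or more higher in well 2 than in well 1, where 7.93% of all genes tested were. Clec4a1 stood at 274 CPM in well 2 and 7.66 CPM in well 1, with a UMI in 40.2% and 2.86% of nuclei. Clec10a stood at 90.3 and 0.821 CPM, Clec4b1 at 27.5 and 0.547 CPM, Clec2g at 22.4 and 0.547 CPM, Clec4a3 at 123 and 22.4 CPM, and Clec4a2 at 163 and 44.0 CPM. The Dcir genes, Clec10a, Clec4b1 and Clec2g thus all had higher levels in well 2. In the opposite direction, 2 members were lower in well 2, where 18.1% of all genes were: Clec9a at 0.860 against 10.1 CPM and Clec1a at 2.58 against 9.85 CPM. Clec16a (65.4 and 62.4 CPM), Clec5a (24.9 and 23.2 CPM) and Clec2d (52.5 and 69.5 CPM) were not called. The steady nuclei of well 2 also had more Clec4a1 (117 CPM) than those of well 1 (19.2 CPM), so the gap between wells was not confined to the resident-like class.

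The start of Clec4a1 is shown because this gene had the highest level of its cluster in resident-like nuclei and in well 2. That of Clec4d, an activating member of the same cluster, is shown for comparison. Both windows hold GAGGAA, a core bound by PU.1, the lineage factor of macrophages, given in capitals in either direction (TTCCTC on the other strand). The windows are RefSeq promoters of GRCm38.p6, 250 bases before to 50 after the start, on the plus strand at chr6:122921598-122921897 and chr6:123261857-123262156.
Clec4a1: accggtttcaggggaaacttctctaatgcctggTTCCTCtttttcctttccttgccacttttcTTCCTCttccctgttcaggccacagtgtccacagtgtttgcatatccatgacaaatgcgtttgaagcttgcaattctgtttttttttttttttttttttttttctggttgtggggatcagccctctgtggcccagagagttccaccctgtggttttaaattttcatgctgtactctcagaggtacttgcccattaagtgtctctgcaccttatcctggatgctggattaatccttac
Clec4d: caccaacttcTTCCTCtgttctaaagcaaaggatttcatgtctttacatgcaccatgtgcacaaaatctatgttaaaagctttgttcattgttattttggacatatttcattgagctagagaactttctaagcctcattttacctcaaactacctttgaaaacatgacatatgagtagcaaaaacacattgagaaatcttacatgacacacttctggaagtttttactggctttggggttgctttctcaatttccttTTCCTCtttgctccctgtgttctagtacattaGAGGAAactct
Clec4a1 has 2 such matches and Clec4d 3. Other members of the cluster have fewer: Clec4a2 has 0, and the promoters of Clec4a3 have 0 and 1. RefSeq gave 33 promoters for 31 of the 39 members, and 15 of the 33 hold GAGGAA on either strand, as do 28.3% of all 32851 promoters of this length. Of the 16 promoters that belong to members with 10 or more UMIs, 8 hold it. The core TGAGTCA of AP-1, a stress-induced factor, cannot overlap GAGGAA by its letters. Searched on both strands, it is in 5 of the 33 promoters and 5.20% of all. Clec4a2 holds 1 and Clec4a1 and Clec4d none. A match is a stretch of letters, not a measured site.

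Inflammatory nuclei had a partly different set, which shares Clec4n with that of resident-like nuclei. Against steady nuclei, 3 of 11 members tested were higher, where 6.96% of all genes tested were, and 2 were lower, where 13.9% were. The median ratio was 0.644 over the members and 0.797 over all genes tested. Clec1a, which recognises fungal melanin, had 26 UMIs in 17 of 192 inflammatory nuclei (39.1 CPM, 25.5 to 57.3) and 3 UMIs in steady nuclei (3.61 CPM), a ratio of 10.8 (3.32 to 56.0). Resident-like nuclei had no UMI of Clec1a, which allows 4.19 CPM. Clec4n was at 49.6 against 18.0 CPM (2.75, 1.45 to 5.45) and Clec4d at 22.6 against 7.21 CPM (3.13, 1.15 to 9.84). Clec4e, the partner of Clec4d, had 13 UMIs against 2, under the minimum of 20. The inhibitory Clec4a2 was lower, at 33.1 against 72.1 CPM (0.459, 0.268 to 0.759), and so was Clec4a1, at 7.52 against 31.3 CPM (0.241, 0.0721 to 0.637). Of the members called, the activating Clec4n and Clec4d were higher and the Dcir members Clec4a1 and Clec4a2 lower than in steady nuclei. The share of members lower, 18.2%, was near the 13.9% of all genes. Clec4n was also called higher in resident-like nuclei, where Clec4a1 and Clec4a2 were higher too. The 6 members not called included the activating Clec5a and the Dcir relative Clec4a3.

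Since 178 of the 192 inflammatory nuclei came from well 1, the contrast was read there. Within well 1, Clec1a had 25 UMIs against 2 (14.5, 3.62 to 126), Clec4n 30 against 13 (2.68, 1.35 to 5.59) and Clec4a2 19 against 46 (0.479, 0.265 to 0.834). Clec4a1 had 1 against 14 UMIs (0.0829, 0.00196 to 0.545), and Clec4d had 10 against 4 (2.90, 0.836 to 12.7), under the minimum of UMIs. The directions of these 5 genes in well 1 were those of the pooled nuclei. Over the settings tried, Clec1a kept its call in all 18 that gave it a value, while Clec4d lost it in 7 of 19, Clec4a2 in 6 of 19 and Clec4a1 in 4 of 19. In well 2, the 14 inflammatory nuclei had 1 UMI of Clec1a and 3 of Clec4n, and no member reached 20 UMIs with a 2-fold difference. Neutrophil markers were at 188 CPM in inflammatory nuclei, with 4 of 7 detected and Ly6g, Mmp8 and Retnlg at 0. In steady nuclei they were at 80.5 CPM, with 2 of 7 detected and Cxcr2 and S100a9 also at 0. Their part in the result was not tested.

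Immediate early nuclei were lower in 5 of 8 members tested, where 9.72% of all genes tested were, and higher in 0, where 20% were. The 5 were Clec12a (0.221), Clec4a2 (0.252), Clec4a3 (0.304), Clec5a (0.394) and Clec4n (0.448). These values rest on 17 of the 193 nuclei, those with 20000 UMIs or more, which held 58.6% of the class's UMIs. Their epithelial markers were at 2718 CPM and the 4 gate genes at 116 CPM, while in the remaining nuclei these were at 493 and 2487 CPM. Without such nuclei 0 members were lower: Clec4a2 had a ratio of 0.609 (0.372 to 0.974), Clec12a 0.533 (0.257 to 1.04), Clec4a3 0.734 (0.397 to 1.32), Clec5a 0.952 and Clec4n 0.992. The family level of the remaining immediate early nuclei was 407 CPM (358 to 460), an interval that overlaps that of the steady nuclei (405 to 498).

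**Figure D3:**
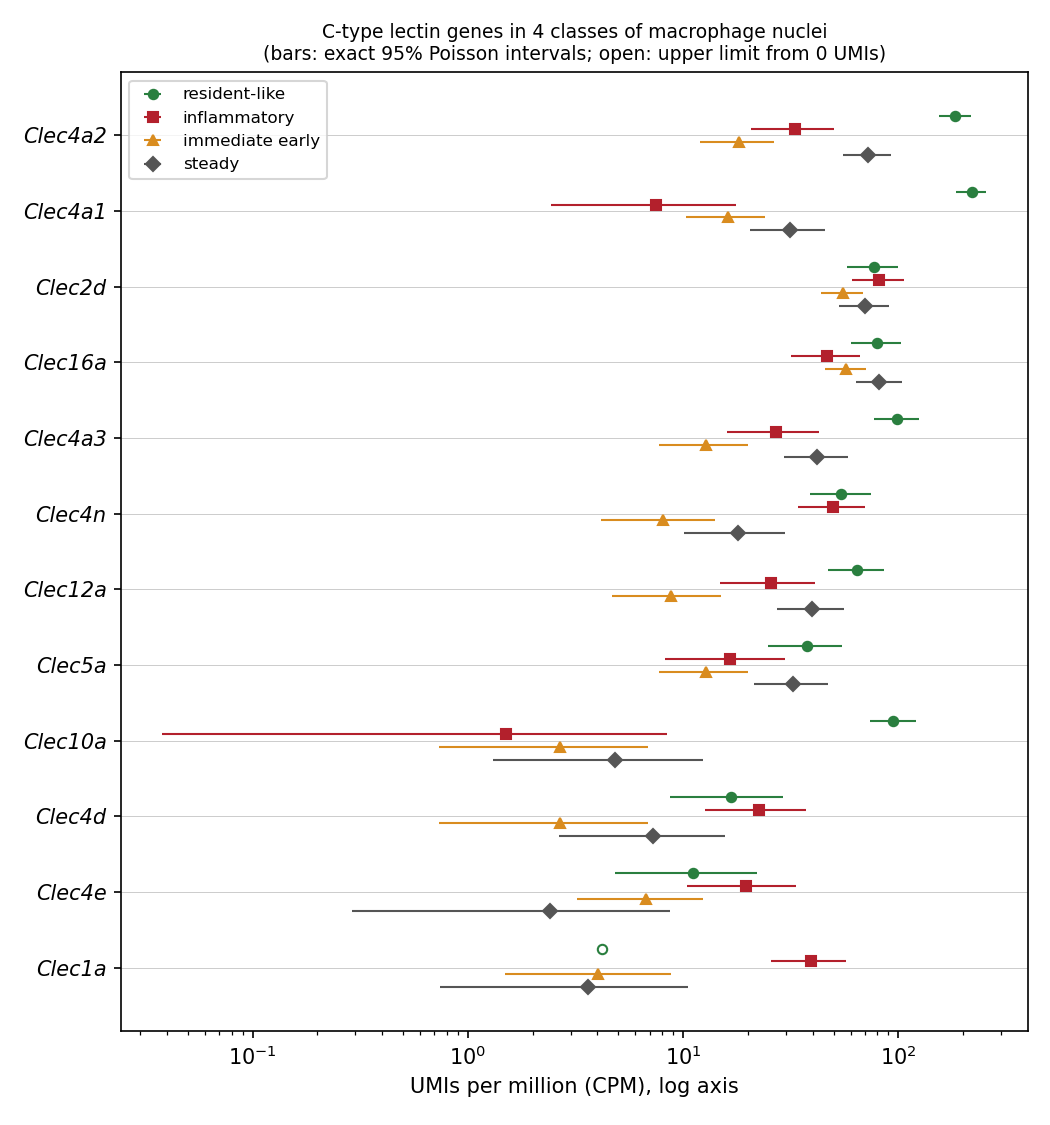
Levels (x axis: CPM on a log axis) of 12 members in resident-like, inflammatory, immediate early (with the 17 deep nuclei) and steady nuclei. Bars are exact 95% Poisson intervals and the open symbol marks the upper limit that 0 UMIs allow (3 counts). Clec10a and Clec4a1 are highest in resident-like nuclei at 94.9 and 219 CPM, Clec1a in inflammatory nuclei at 39.1 CPM, and the intervals of Clec2d overlap in all 4 classes.

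Gpnmb marks lipid-laden macrophages, and 43 nuclei held a UMI of it, most of them mixed with a second state. Of the 15 that did not, 2 held all 76 Colec12 UMIs of the class, 59 and 17, both nuclei from well 2 with 9 and 4 Gpnmb UMIs. The class level of Colec12, 1356 CPM against 12.0 CPM in steady nuclei, is the level of those 2 nuclei. Of all 43, 5 held Colec12 UMIs (83 in all). Colec12 was the 1 member of 8 called higher, where 11% of all genes tested were, and Clec4a3 (1 UMI) and Clec4a2 (2 UMIs) were called lower, where 13.7% were. In 15 nuclei the counts are too few to describe the other members: Clec5a and Clec4d had 3 UMIs each and Clec12a 2. Clec2d and Clec16a had none, which allows 53.5 CPM each.

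Mixed nuclei, with 69.4% from well 2, had Clec4a1 at 154 CPM (127 to 185). This lay below its level of 219 CPM (186 to 256) in resident-like nuclei and above that of 31.3 CPM in steady nuclei. In well 2 Clec4a1 was at 250 CPM (205 to 302) in mixed and 397 CPM (337 to 466) in resident-like nuclei, and in well 1 at 13.7 and 15.0 CPM. Mixed nuclei had the highest levels of the Mincle pair among the classes of over 100 nuclei. Clec4d was at 33.3 CPM (21.3 to 49.6) and Clec4e at 36.1 CPM (23.6 to 52.9), against 16.8 CPM (8.66 to 29.3) and 11.2 CPM (4.82 to 22.0) in resident-like nuclei. The intervals of Clec4d overlap and those of Clec4e do not. All of these Clec4e UMIs were from well 2, and within well 2 its intervals overlap, at 60.8 CPM (39.7 to 89.0) in mixed and 20.9 CPM (9.03 to 41.2) in resident-like nuclei. Clec10a was at 41.6 CPM (28.1 to 59.4), below its resident-like level of 94.9 CPM (73.7 to 120).

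Some members are also known from dendritic cells. Clec9a, a receptor for actin of dead cells and a marker of cross-presenting dendritic cells, had 38 UMIs in 27 nuclei, 26 of them from well 1. None of the 27 held a UMI of Flt3, Xcr1 or Zbtb46 and 26 held one of a C1q gene. Clec9a overlaps Clec1b and the gene Gm43914 on the same strand, and ends next to Clec1a, so its counts are uncertain. Of the 46 nuclei with Clec10a, 9 (19.6%) held a UMI of those 3 dendritic cell genes, against 2.22% of nuclei without it, at median depths of 4365 and 3091 UMIs. Of the 6 nuclei with Cd209a, 3 did. In resident-like nuclei, where Clec10a was highest, Zbtb46 had 7 UMIs (9.77 CPM, against 1.20 CPM in steady nuclei) and Flt3 and Xcr1 had none. Of 8 dendritic cell markers, 4 were detected there (Ccr7, Flt3, Itgae and Xcr1 were at 0), at 892 CPM in sum, against 781 CPM in steady nuclei with Ccr7 at 0. This sum is not particular to dendritic cells, since epithelial nuclei had 430 CPM with the same 4 at 0. In Gpnmb-positive nuclei it was 785 CPM, all from Tcf4. The part of dendritic cells in the Clec10a level was not tested.

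The signalling partners were widely measured. All 19 of a list of adaptors, kinases and downstream factors had 10 or more UMIs in macrophage nuclei, and 14 were higher there than in epithelial nuclei, where 15% of all genes tested were. Among them, the kinase Syk stood at 345 against 2.83 CPM (122, 52.1 to 375), the phosphatase Inpp5d at 1655 against 14.2 CPM, the kinase Lyn at 2223 against 125 CPM, and the adaptors Fcer1g at 167 against 9.63 CPM and Tyrobp at 127 against 10.2 CPM. Card9, which passes the signal from Syk to Bcl10 and Malt1, was the lowest of this chain in macrophage nuclei at 14.5 CPM. Between states few partners were called: of 18 tested, resident-like nuclei had 1 higher, the transcription factor Nfatc2 (2.22, 1.68 to 2.95), and 1 lower, Malt1 (0.475, 0.369 to 0.606), shares near those of all genes (4.58% and 5.76%). Inflammatory nuclei had 2 of 18 higher, Malt1 (2.86, 2.45 to 3.35) and the NF-kB subunit Rel (2.96, 2.46 to 3.56), where 6.96% of all genes were. Gpnmb-positive nuclei had Bcl10 (4 UMIs) and Syk called higher and Vav1 lower of 17, where 11% and 13.7% of all genes were. Immediate early nuclei had 7 of 18 lower (Inpp5d, Fcer1g, Nfatc2, Lyn, Ptpn6, Tyrobp and Vav1) with the 17 deep nuclei included, where 9.72% of all genes were.

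Of 29 other genes with lectin domains, 8 of 10 tested were higher in macrophage than epithelial nuclei, where 15% of all genes were: Cd93, Klrb1b, Cd72, Cd69, Olr1, Cd302, Mgl2 and Lgals3. Ly75 was lower, at 4.77 against 23.2 CPM, where 21.5% of all genes were. Between states 6 of these genes had enough UMIs, and the shares of all genes called are those given for the partners, with 13.9% lower in inflammatory nuclei. Mgl2, the gene copy next in kind to Clec10a, had 40 UMIs (8.30 CPM). Klrb1b, an inhibitory receptor whose known ligand is the product of Clec2d, stood at 39.2 CPM in the same nuclei. Resident-like nuclei had Cd93 higher than steady ones (124 against 31.3 CPM) and Cd72 and Cd69 lower (88.0 against 180 CPM and 4.19 against 26.4 CPM). Inflammatory nuclei had Lgals3, a galectin, higher (618 against 284 CPM) and Cd302 and Cd69 lower (10.5 against 43.3 CPM and 12.0 against 26.4 CPM). Gpnmb-positive nuclei had Lgals3 at 1231 CPM and Cd93 at 196 CPM, both called higher, and Cd72 at 53.5 CPM, called lower, each of 6 tested. Immediate early nuclei, deep ones included, had Cd302, Cd72, Klrb1b and Cd69 lower of 6. T cell markers were at 131 CPM in steady nuclei and 34.0 CPM in all macrophage nuclei. Their part in the levels of Cd69 and Cd72 in steady nuclei was not tested.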

How the data were processed

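Single-nucleus RNA (10x Genomics 3' v3) was counted for tumour macrophages of 2 samples. The authors deposited whole-number UMI counts per gene and barcode. Cell Ranger 5.0 and mm10 are named, per the submitters' processing notes, and version 5.0.1 stands in the matrix, per the file headers. Whether intronic reads were counted, which would raise long genes, how nuclei were called and which annotation was used is not given in the sources used here.

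The matrix has 1838 barcodes and 7381447 UMIs: 1383 barcodes, 5868606 UMIs and a median of 2487 in well 1, and 455, 1512841 and 2834 in well 2. None of the 2 wells could be mapped to a sample, so the matrix was used as 1. Barcodes under 500 UMIs (11) or 300 genes (5), or over 5% mitochondrial UMIs (9), were removed (21 in all), with 9 doublets called by Scrublet per well in scanpy 1.11.5, all in well 2.

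UMIs were summed over nuclei and scaled to CPM with Python 3.11.15, numpy 2.4.6, scipy 1.17.1 and pandas 2.3.3; figures used matplotlib 3.10.9. A class at 0 UMIs enters a ratio with 3 counts over the class. For shares, nuclei were also thinned to 1000 UMIs. The Gpnmb gate of 2 UMIs gave 10 nuclei past no other gate, under the set minimum of 30, so 1 UMI was used. Gene spans are from GENCODE vM21, and promoters from RefSeq. There was no test, since nuclei are not replicates. On simulated counts the 2-fold rule recovered 99% or more of changed genes in the resident-like, inflammatory and immediate early comparisons. It called 2.85%, 2.74% and 2.69% of unchanged ones there. In the Gpnmb-positive comparison it recovered 95.9% and called 21.5% of unchanged ones. The real classes also differ in their share of each well, and some UMIs lie in few nuclei. These rates are thus not error rates of the calls. Members with 10 or more UMIs are described, the others by count, and of the partner and lectin-domain lists those past 2-fold are named, with the chain from Syk and 3 genes (Card9, Mgl2 and Klrb1b) singled out for their roles after their values were seen. Members and lists were chosen with earlier results of these data known. The summed level of monocyte markers is not reported here, and its part in the differences between states was not tested.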

Additional observations from a re-analysis of the deposited data

How the results depend on the processing

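The counts of members called were recomputed under 19 other settings, 5 of them chosen after seeing the data. Members higher against epithelial nuclei numbered 9 in well 2 alone against 14. Members higher in resident-like nuclei, 5 as reported, numbered 9 with gates on thinned counts, 8 with gates not exclusive (also with a Gpnmb gate of 2 UMIs, not exclusive), 1 in well 1, 3 in well 2, 8 with a minimum of 10 UMIs and 10 with none. Members higher in inflammatory nuclei, 3 as reported, numbered 1 with gates on thinned counts and 0 in well 2. Those lower, 2 as reported, numbered 4 with a macrophage gate of 5 UMIs, with state gates raised by 1 or with no minimum, 0 with gates not exclusive (both forms) or in well 2, 1 with equal weight per nucleus or without the deepest 5% of nuclei, and 6 at 1.5-fold. In immediate early nuclei, higher members, 0 as reported, numbered 1 with gates on thinned counts, equal weight or a minimum of 10 or none, and 2 with gates not exclusive (both forms). Lower members, 5 as reported, numbered 0 without nuclei with epithelial UMIs, with equal weight or without nuclei of 20000 UMIs or more, 1 with gates on thinned counts or not exclusive (both forms) or in well 2, 2 without the deepest 5%, and 8 with no minimum. In Gpnmb-positive nuclei, higher members, 1 as reported, numbered 0 in well 1, 2 with gates on thinned counts, equal weight, without the deepest 5% or at 1.5-fold, and 3 with no minimum. Lower members, 2 as reported, numbered 0 with gates raised by 1, in either well or without the deepest 5%, 4 at 1.5-fold, and 1 with a macrophage gate of 5 UMIs, equal weight, without the nucleus with most Colec12 UMIs or without gate nuclei lacking Csf1r, Adgre1 and Mertk.

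Single genes changed direction in 8 cases. Clec4n in immediate early nuclei, 0.448 as reported, was 1.91 without nuclei with epithelial UMIs, 1.22 with gates on thinned counts and with gates not exclusive (both forms), and 2.02 with equal weight. Clec4a1 in resident-like nuclei was 0.780 in well 1, Clec4a2 in Gpnmb-positive nuclei 1.01 in well 1, and Clec5a in immediate early nuclei at least 1.26 in well 2. The ratio of Clec1a in inflammatory nuclei lay between 8.86 and 24.8 over its alternatives, that of Clec10a in resident-like nuclei between 6.07 and 45.8 where it had a value, and that of Clec4n there between 2.40 and 5.93. The cause of the other changes was not tested.

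No paired analysis was possible because neither well could be mapped to a sample and there was 1 sample per group. With 1 pooled sample there were no replicates to leave out. Depth limits members under about 20 UMIs, the 15 Gpnmb-positive nuclei and the 14 inflammatory nuclei of well 2.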

Other observations

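Other kept nuclei that passed neither the macrophage nor the epithelial gate (431, with a median of 912 UMIs) also held C-type lectin UMIs. The family stood at 379 CPM (336 to 426) in them, with 28 members detected. Clec4e was at 31.1 CPM (19.7 to 46.7) on 23 UMIs from 9 nuclei, above its level of 12.2 CPM (9.32 to 15.8) in macrophage nuclei, while Clec4a1 was lower, at 21.6 CPM (12.4 to 35.1) against 72.0 CPM. Il1b, a gene of the inflammatory gate, stood at 466 CPM in these nuclei and 300.5 CPM in macrophage nuclei. The difference in Clec4e was noticed after its values were seen and was not tested.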
